A study of Mus musculus with 40 samples.

Results

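Socs2 and 7 genes of the same signalling circuit, Socs1, Socs3, Cish, Pim1, Stat5a, Stat5b and Jak2, were followed across mouse embryos and fetal blood progenitors that carried mutations in the histone acetyltransferases KAT6A and KAT6B. These 8 genes, of 26411 in the count files, were picked by symbol, and the choice rested on measured values: Socs2 had responded differently in the 2 tissues. Its values are therefore given as a description with log2 fold changes and standard errors, and tests are given for the other 7 genes. The study was made of 24 whole embryos at E9.5 and 16 samples of LSK cells at E14.5 with 4 libraries per genotype. LSK cells are lineage-negative cells positive for SCA-1 and c-KIT, sorted by flow cytometry from the fetal liver, a fraction that holds blood stem cells and early progenitors.

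The embryos were wild type (WT), Kat6a-/- (allele cfd in the labels), Kat6b-/- (allele dec), Kat6aE/E, Kat6bE/E or Kat6aE/E;Kat6bE/E, called the double mutant below. The E alleles are point mutations in the acetyltransferase domain, G656E in KAT6A and G577E in KAT6B, made by CRISPR in the germline, and each E/E group carried them on both chromosomes. LSK cells were taken from WT, Kat6aE/E, Kat6bE/E and double mutant fetuses, and no null genotype was profiled there. The point mutants were made on a C57BL/6J background, and the null alleles were kept on C57BL/6. The labels also name the litter of each library, 17 litters for the embryos and 9 for the LSK cells, and the litter was a random block in the model. Per the study's methods, the 4 libraries of a genotype came from 4 embryos or fetuses.

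JAK2 is a tyrosine kinase bound to cytokine receptors such as those for erythropoietin, thrombopoietin, growth hormone and IL-3. Once a ligand binds, JAK2 phosphorylates the receptor and the transcription factors STAT5A and STAT5B, which enter the nucleus as dimers and switch on target genes. Among the best known targets are Cish, Socs2, Socs1, Socs3 and Pim1. CISH and the SOCS proteins then bind receptors or JAKs and dampen the signal, so the circuit limits itself, and in blood progenitors it sets the response to growth and survival cytokines.

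STAT5 dimers bind a palindrome of 9 bases, TTC and GAA with any 3 bases between them. RefSeq windows from 250 bases before to 50 bases after annotated starts (GRCm38.p6) were found for 7 of the 8 genes, and none was given for Socs2. The palindrome, read on both strands, stood in the windows of Cish and Socs3 and in none of the others, and 8.3% of all 32851 windows of that length held it. The 2 stretches are shown because these targets have matches close to their starts, with the palindrome in capitals.
Socs3, 100 bases at chr11:117969466-117969565, minus strand: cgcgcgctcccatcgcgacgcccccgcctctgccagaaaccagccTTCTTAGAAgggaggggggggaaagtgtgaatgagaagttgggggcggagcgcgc
Cish, 30 bases at chr9:107296659-107296688, plus strand: TTCCTGGAAagTTCTTGGAAatctgtcaaa
The Socs3 match began 154 bases before the start, whereas Cish had one match at its first base and another 11 bases further. A match describes letters only; no binding was measured here.

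All 8 genes passed the filter on low counts in both tissues and in the joint model. Library totals ranged from 8401990 to 23339359 counts in embryos and from 12270376 to 59216547 in LSK cells, which gave 129 to 433 Socs2 counts per embryo library and 101 to 485 per LSK library. c-KIT transcript stood at 351 to 552 CPM (counts scaled to a common library size, by TMM within a tissue) in all LSK libraries, and Ly6a, which encodes SCA-1, at 0.937 to 10.3 CPM against at most 0.402 in embryos. Of 10 LSK markers, Mecom (5.86 to 30.7 CPM) and Meis1 (14.7 to 89.3) were lower than in embryos (37.2 to 54.2 and 94.1 to 136). All others of the 10 were higher in LSK libraries. There the 10 summed to 998 to 2103 CPM, and 13 mature myeloid markers to 4369 to 7576 CPM. The counts could not check the point mutations, and whole-gene counts of Kat6a in Kat6a-/- embryos (166 ± 4.65 CPM, SD, n = 4) were close to WT (176 ± 8.79), while Kat6b in Kat6b-/- embryos (54.5 ± 2.75) was above WT (40.5 ± 2.51; FDR 0.00441 in limma); counts over a whole gene do not show whether a part of it is missing, so they checked neither null label. In 4 LSK libraries, Kat6aE/E replicate 2 and double mutant replicates 2 to 4, the last all of 1 litter, 11708 to 12349 genes were detected, against 13022 to 13068 in the other 12. Results in LSK cells are therefore also given without these 4.

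In LSK cells, Socs2 was high in 3 of the 4 Kat6aE/E libraries and in 3 of the 4 double mutants, and at the WT level in Kat6bE/E. The SOCS2 protein is best known for restraining growth hormone signalling and for its induction by STAT5 in blood cells. The WT libraries held 8.72, 9.79, 8.001 and 7.89 CPM (mean 8.60 ± 0.873, SD, n = 4). Kat6bE/E libraries held 9.66, 7.51, 7.98 and 8.58 CPM (8.43 ± 0.926) and overlapped WT. Kat6aE/E libraries held 14.8, 5.47, 15.4 and 16.03 CPM (12.9 ± 4.999), so replicate 2 lay below every WT library and the other replicates lay above all of them. Double mutants held 14.1, 7.43, 11.5 and 15.8 CPM (12.2 ± 3.65), again with replicate 2 under WT and the rest above it.

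In the model, which removes 4 surrogate variables, that is, hidden components of variation estimated from all genes, the log2 fold change of Socs2 against WT was 0.72 (SE 0.11) in Kat6aE/E, 0.66 (SE 0.17) in the double mutant and 0.12 (SE 0.15) in Kat6bE/E. The first corresponds to 1.65-fold. Without surrogate variables the Kat6aE/E estimate was 0.63 with a larger SE of 0.27. Against Kat6bE/E, the estimates were 0.60 (SE 0.14) for Kat6aE/E and 0.54 (SE 0.16) for the double mutant, and the double mutant differed from Kat6aE/E by −0.06 (SE 0.16; 95% interval −0.41 to 0.29). A further change of Socs2 with the added Kat6b mutation was thus within its SE, and its interval spans both directions.

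**Figure D1:**
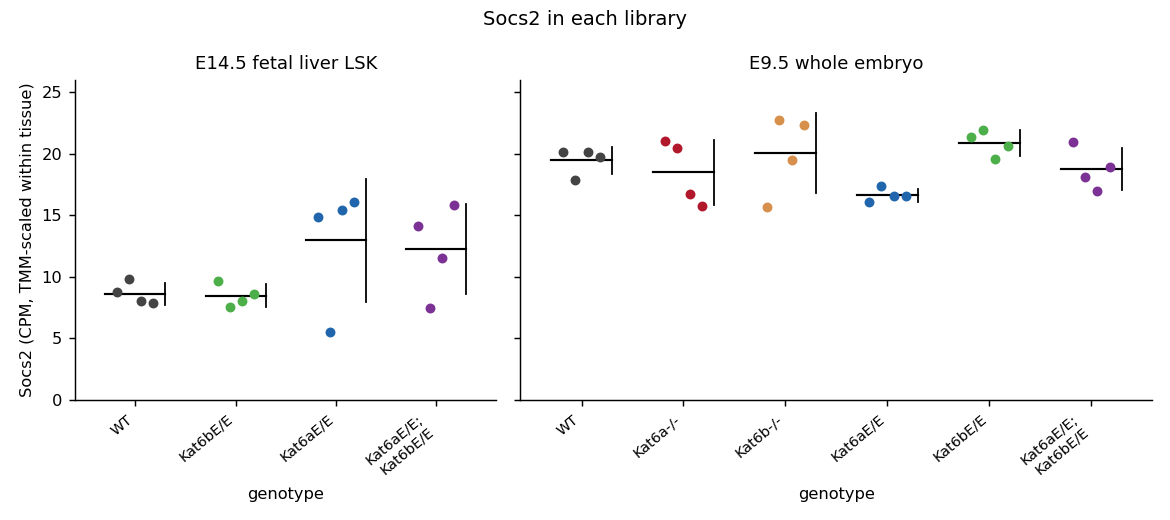
Socs2 level (CPM scaled by TMM within each tissue, vertical axis) in each library by genotype, with E14.5 LSK cells on the left and E9.5 embryos on the right; dots are libraries, horizontal bars means and vertical bars SD of 4 libraries. Kat6aE/E LSK libraries sit at 14.8 to 16.03 except for 1 at 5.47, whereas the 4 Kat6aE/E embryos sit at 16.04 to 17.3, below the 4 WT embryos.

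The 2 low mutant libraries were among those with few genes detected. Kat6aE/E replicate 2 had 12349 genes detected and a summed level of 9 erythroid markers of 6979 CPM, the highest of its genotype, where the other 3 ranged from 535 to 2554. Double mutant replicate 2 had 11708 genes detected and 15759 CPM of erythroid markers, also the highest of its genotype, yet replicates 3 and 4 of the same litter, with 9504 and 9047 CPM, held 11.5 and 15.8 CPM of Socs2. Without Kat6aE/E replicate 2 the mean of that genotype was 15.4 ± 0.613 (SD, n = 3) and the estimate 0.81. Without all 4 libraries, an alternative chosen after the data were seen, the estimates were 0.83 (SE 0.14) for Kat6aE/E and 0.69 (SE 0.20) for the double mutant, of which 1 library was then left. The part of erythroid cells and of detection in the low values was not tested.

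Summed levels of lymphoid and of mast cell and basophil markers were lower in the genotypes in which Socs2 was high. The summed level of 10 lymphoid markers was 108 to 171 CPM in WT and 111 to 131 in Kat6bE/E, but 50.2 to 81.3 in Kat6aE/E and 17.1 to 80.9 in double mutants, with Cd3e and Cd8a at 0 in all 4 genotypes. Of the 7 lymphoid markers tested, 3 fell in Kat6aE/E against WT. The sum of 8 mast cell and basophil markers was 145 to 158 CPM in WT, 127 to 154 in Kat6bE/E, 89.2 to 106 in Kat6aE/E and 102 to 124 in double mutants, and 2 of 7 tested fell in Kat6aE/E. In that genotype 1 of 6 megakaryocyte markers also fell, 2 of 12 mature myeloid markers rose, and 0 of 9 erythroid markers were called. For the double mutant against WT, 0 markers of these lists were called. The called shares of all genes were 1.36% for Kat6aE/E and 0% for the double mutant. The part of these cell types in the Socs2 values was not tested, and in bulk libraries a shift in the share of a cell type and a shift of RNA per cell cannot be told apart.

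Litters that held more than 1 genotype gave a comparison free of litter. In litter 753, the Kat6aE/E library had 14.8 CPM of Socs2 and the 3 WT libraries 8.72, 9.79 and 8.001. In litter 970, the double mutant library had 14.1 CPM and the Kat6bE/E library 9.66. Each of these comparisons rests on 1 mutant library, and no double mutant LSK library shared a litter with WT. Pim1 went the other way in litter 753, with 190 CPM in Kat6aE/E and 224 to 234 in WT. Socs1 (4.97 against 5.41 to 6.69) and Socs3 (2.15 against 2.71 to 4.62) also lay below WT there. So did Stat5b (149 against 158 to 163) and Jak2 (82.0 against 85.8 to 89.2). Cish, at 4.63 CPM, lay inside the 3.42 to 4.73 of WT, and Stat5a, at 99.1 CPM, inside 96.1 to 102.

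In embryos, Socs2 differed little between genotypes. WT embryos held 20.2, 17.8, 20.1 and 19.7 CPM (19.5 ± 1.10, SD, n = 4). Kat6aE/E embryos held 16.04, 17.3, 16.6 and 16.5 CPM (16.6 ± 0.533), all below every WT embryo, with a log2 fold change of −0.22 (SE 0.09). The sign was therefore opposite to that in LSK cells. Of all genes tested in embryos, 4.94% did not overlap between Kat6aE/E and WT, in either direction. Kat6a-/- embryos held 21.0, 20.5, 16.7 and 15.7 CPM (18.5 ± 2.64), 2 above and 2 below the WT range.

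Kat6b-/- embryos held 15.7, 22.7, 19.4 and 22.3 CPM (20.04 ± 3.25), Kat6bE/E embryos 21.4, 21.9, 19.5 and 20.6 (20.9 ± 1.03) and double mutants 21.0, 18.1, 17.0 and 18.9 (18.7 ± 1.68). All of these ranges overlapped WT. Log2 fold changes against WT were −0.10 (SE 0.09) for Kat6a-/-, 0.05 (SE 0.09) for Kat6b-/-, 0.05 (SE 0.09) for Kat6bE/E and −0.04 (SE 0.09) for the double mutant. The double mutant carries the same Kat6a alleles as Kat6aE/E, but its Socs2 level lay 0.18 (SE 0.10) above it on the log2 scale. Libraries of 1 litter gave 17.8 CPM in WT and 16.04 in Kat6aE/E (litter 683), 20.2 in WT and 20.5 in Kat6a-/- (litter 5556), and 20.1 in WT and 22.7 in Kat6b-/- (litter 3482).

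A joint model of all 40 libraries set the effects in the 2 tissues against each other. The Socs2 effect in LSK cells minus that in embryos was 0.89 (SE 0.16) for Kat6aE/E, 0.71 (SE 0.20) for the double mutant and −0.01 (SE 0.19) for Kat6bE/E, as log2 fold changes. The difference for Kat6aE/E was the pattern for which Socs2 had been chosen, so it carries no test. Tissue goes with stage and cell sorting here, and these cannot be told apart. Whether RNA kit and RNA input also went with tissue is not settled. The paper gives the same kit and input for both tissues, while the sample records give other inputs.

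**Figure D2:**
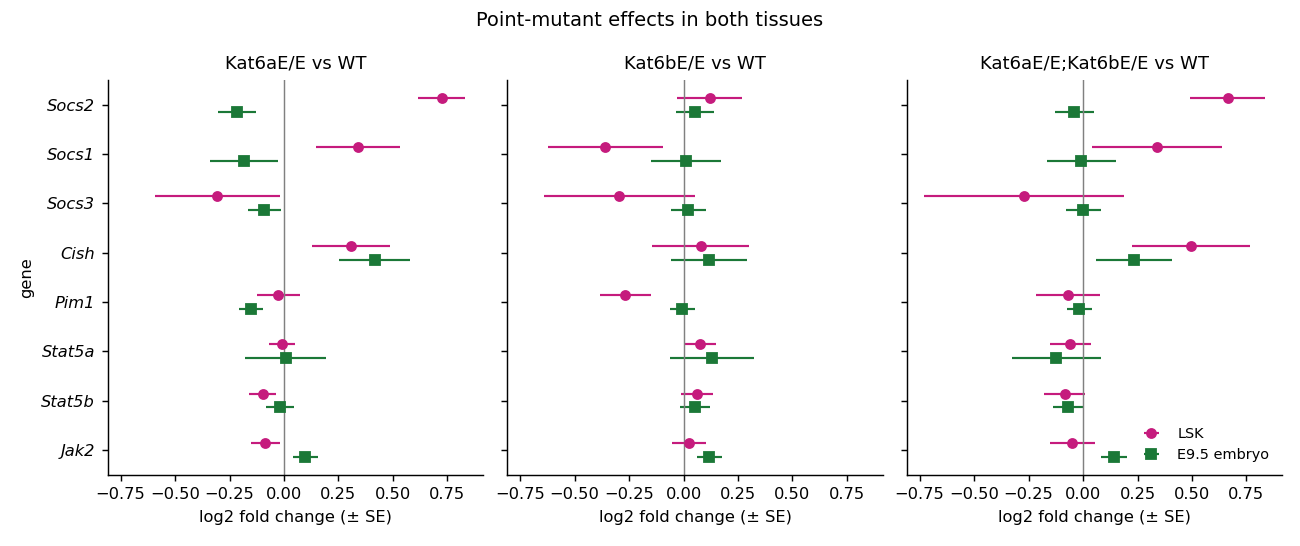
Log2 fold change against WT (horizontal axis, bars are SE of the model) of each of the 8 genes in the 3 point mutant genotypes, with circles for LSK cells and squares for E9.5 embryos; 4 libraries per genotype and tissue. Socs2 lies at 0.72 in Kat6aE/E and 0.66 in double mutant LSK cells and at −0.22 and −0.04 in the embryos, and among the other 7 genes the highest estimate is 0.49 (Cish, double mutant LSK cells).

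None of the other 7 genes was called (FDR below 0.05, where FDR is the Benjamini-Hochberg adjusted p of limma's moderated test over all genes) in any comparison of a mutant with WT. In LSK cells, the share of all tested genes that was called was 1.36% for Kat6aE/E, 0% for Kat6bE/E and 0% for the double mutant. Among the 7 genes, the numbers with an unadjusted p below 0.05 were 0, 1 (Pim1) and 0 in these comparisons, and edgeR and DESeq2 with the same surrogate variables called 0 of the 7 in each. Of all 13071 genes, 12.5%, 2.78% and 6.85% had an unadjusted limma p below 0.05 in the same order. EdgeR and DESeq2 called 0 and 0 of all genes for Kat6bE/E and 1 and 80 for the double mutant. The count for the double mutant hung on replicate 1: without it, when the other 3 were of 1 litter with few genes detected, 2170 genes (16.4%) but still 0 of the 7 were called. The median log2 fold change of the 7 genes was −0.03, 0.02 and −0.06 for Kat6aE/E, Kat6bE/E and the double mutant, and that of all genes −0.01, 0.01 and −0.03.

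In embryos, the called share of all 14183 genes was 2.64% for Kat6a-/-, 0.508% for Kat6b-/-, 0.275% for Kat6aE/E, 0% for Kat6bE/E and 2.91% for the double mutant. Of the 7 genes, 2, 1, 2, 0 and 1 had an unadjusted limma p below 0.05 in the same order, and edgeR and DESeq2 called none of the 7. The shares of all genes with such a p were 16.9%, 12.1%, 10%, 4.41% and 18.2%. For Kat6bE/E, edgeR and DESeq2 called 0 genes. Medians of the 7 genes were −0.02, 0.08, −0.02, 0.05 and −0.01, where those of all genes lay between −0.0043 and 0.00054. These comparisons share the 4 WT libraries of their tissue.

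SOCS1, a direct inhibitor of JAK kinases, restrains interferon and common gamma chain cytokine signals. In WT LSK cells Socs1 was at 5.78, 5.41, 6.69 and 3.52 CPM. Kat6bE/E libraries held 4.06, 3.08, 3.02 and 3.42 CPM, Kat6aE/E libraries 4.97, 8.13, 6.39 and 7.94, and double mutants 6.37, 4.35, 4.43 and 2.60. All Kat6aE/E libraries thus lay above all Kat6bE/E libraries, while both overlapped WT. Of all genes tested, 9.94% did not overlap between Kat6aE/E and Kat6bE/E, in either direction. Log2 fold changes against WT were 0.34 (SE 0.19, FDR 0.507) in Kat6aE/E, −0.36 (SE 0.26, FDR 0.9998) in Kat6bE/E and 0.34 (SE 0.30, FDR 0.871) in the double mutant. Within litter 753, however, the Kat6aE/E library (4.97 CPM) lay below its WT littermates (5.41 to 6.69).

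The contrast of Kat6aE/E with Kat6bE/E in LSK cells gave 0.70 (SE 0.26) for Socs1, 1.62-fold, with an FDR of 0.170 in limma. The call depended on the tool: edgeR gave 0.80 (FDR 0.0261) and DESeq2 0.81 (FDR 0.00679), both past the threshold. For the double mutant against Kat6bE/E the value was 0.70 (SE 0.28, FDR 0.178), and DESeq2 called it (0.79, FDR 0.0361). The shares of all genes that edgeR and DESeq2 called in these comparisons are not given here. In embryos, Socs1 stood at 3.11, 3.60, 2.71 and 3.97 CPM in WT, at 4.50, 3.72, 4.54 and 4.54 in Kat6a-/- and at 3.21, 2.54, 2.75 and 3.08 in Kat6aE/E. The 2 Kat6a genotypes did not overlap each other, while both overlapped WT, with −0.47 (SE 0.16, FDR 0.129) between them. Among all genes tested, 8.35% did not overlap between these 2 genotypes. The difference of the Kat6aE/E effect between tissues was larger for Socs1 than for the other 6 genes tested, at 0.61 (SE 0.25), and did not pass the test (FDR 0.428).

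CISH binds activated cytokine receptors and blocks STAT5 docking. Cish in LSK cells was at 4.73, 4.24, 3.42 and 3.93 CPM in WT, 3.81, 3.88, 4.05 and 5.62 in Kat6bE/E, 4.63, 8.13, 5.50 and 4.27 in Kat6aE/E, and 5.56, 9.005, 5.79 and 2.64 in double mutants. The 2 highest values fell in replicate 2 of Kat6aE/E and of the double mutant, the libraries that were lowest for Socs2. The log2 fold changes were 0.31 (SE 0.18, FDR 0.524) in Kat6aE/E, 0.08 (SE 0.22) in Kat6bE/E and 0.49 (SE 0.27, FDR 0.766) in the double mutant. Without the 4 libraries with few genes detected, they were 0.30 in Kat6aE/E and 0.52 in the double mutant. With genes detected as the covariate and no surrogate variables, also chosen after the data were seen, the double mutant value was −0.36 (SE 0.48), so its direction was not settled.

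In embryos, Cish had the highest estimate among the 7 genes in every mutant genotype except Kat6bE/E, but none passed the test. The largest were in Kat6a-/- and Kat6aE/E. WT embryos held 6.14, 4.54, 4.48 and 4.02 CPM, Kat6a-/- embryos 7.32, 6.04, 7.35 and 5.85, and Kat6aE/E embryos 6.65, 6.21, 7.81 and 5.08. WT replicate 1 lay within the range of both mutants. The values were 0.43 (SE 0.17, FDR 0.174) and 0.42 (SE 0.16, FDR 0.367), with 95% intervals from 0.09 to 0.78 and from 0.08 to 0.75. Kat6b-/-, Kat6bE/E and double mutant embryos stood at 0.22, 0.12 and 0.23.

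SOCS3 restrains signals through gp130 and the G-CSF receptor. Socs3 was scarce in LSK cells, with 24 to 141 counts per library: 3.65, 2.71, 4.62 and 2.46 CPM in WT, 2.43, 1.89, 2.11 and 3.49 in Kat6bE/E, 2.15, 3.90, 1.84 and 3.42 in Kat6aE/E, and 1.89, 5.92, 2.05 and 2.99 in double mutants. Every mutant range overlapped WT. The log2 fold change in Kat6aE/E was −0.31 with a 95% interval from −0.91 to 0.30, and that in the double mutant −0.27, from −1.25 to 0.71, so falls as large as the lower bounds are not excluded. In embryos the genotype means lay between 11.7 and 13.3 CPM, and estimates ran from −0.14 (SE 0.08) in Kat6b-/- to 0.02 in Kat6bE/E.

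PIM1, a serine/threonine kinase that promotes survival and proliferation downstream of STAT5, had the most abundant transcript of the 8 genes per length. Pim1 in WT LSK cells was at 227, 224, 234 and 163 CPM, in Kat6bE/E at 179, 142, 146 and 181, in Kat6aE/E at 190, 175, 211 and 234, and in double mutants at 191, 186, 176 and 163. Replicate 4 of WT, from another litter than the other 3, was the lowest of its group and lay within the Kat6bE/E range. For Kat6bE/E the log2 fold change was −0.27 (SE 0.12, FDR 0.9998). Without that WT library it was −0.45 (FDR 0.0345), so 1 library decided the call. The other 3 WT libraries were all of litter 753, which held no Kat6bE/E library, so genotype and litter cannot be told apart in that fit. The share of all genes called in it is not given here. Between Kat6aE/E and Kat6bE/E the Pim1 log2 fold change was 0.24 (SE 0.11, FDR 0.292), and DESeq2 called it (0.31, FDR 0.0295). The share of all genes that DESeq2 called there is not given here.

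Embryos held 107, 112, 108 and 112 CPM of Pim1 in WT. In Kat6a-/- the values were 85.5, 92.4, 105 and 104 CPM and in Kat6aE/E 101, 87.7, 100.4 and 105, all below every WT embryo. Of all genes tested, 11.9% and 4.94% did not overlap WT in Kat6a-/- and Kat6aE/E. The estimates were small, −0.12 (SE 0.06, FDR 0.292) and −0.15 (SE 0.06, FDR 0.335), and neither passed the test. Kat6b-/- embryos, at 106, 119, 123 and 120 CPM, gave 0.12 (SE 0.06, FDR 0.383). In the double mutant, at 108, 123, 98.9 and 113 CPM, the estimate was −0.02.

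The STAT5 transcription factors themselves varied little between LSK genotypes. Stat5a in LSK cells was at 96.1, 99.6, 102 and 105 CPM in WT and at 99.1, 111, 98.2 and 99.0 in Kat6aE/E, a log2 fold change of −0.01 (95% interval −0.14 to 0.12). Stat5b was at 163, 158.1, 160 and 163 CPM in WT and at 149, 131, 157.7 and 152 in Kat6aE/E, with −0.10 (95% interval −0.23 to 0.03, FDR 0.575). All Kat6aE/E libraries thus lay just below all WT libraries for Stat5b, and 4.1% of all genes tested did not overlap between these groups. Both intervals lie below the 0.72 of Socs2, but that gene was chosen on its values, so no test follows. The part of STAT5 transcript levels in the Socs2 values was not tested. In Kat6bE/E and double mutant LSK cells the estimates lay between −0.08 and 0.08 for both genes.

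In embryos, Stat5a was barely expressed, with 28 to 105 counts per library, and its estimates, from −0.12 to 0.13, had SEs of 0.19 to 0.20. Stat5b estimates in embryos ran from −0.07 to 0.05, with SEs of 0.07. Stat5a and Stat5b lie 8587 bases apart on chromosome 11 (GRCm39), and 11.7% of the stretches of 66 bases in the Stat5a transcript also occur in Stat5b, so reads there may be placed on either gene.

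Jak2 in LSK cells was at 86.5, 89.2, 85.8 and 109 CPM in WT, 104, 106, 98.5 and 100.4 in Kat6bE/E, 82.0, 109, 94.5 and 84.5 in Kat6aE/E, and 90.7, 102, 126 and 119 in double mutants. The model gave −0.09 (SE 0.07, FDR 0.675), 0.02 (SE 0.08) and −0.05 (SE 0.10) for Kat6aE/E, Kat6bE/E and the double mutant, although the double mutant mean in CPM (109 ± 15.9) was above WT (92.7 ± 11.2). In embryos, WT libraries held 37.7, 35.6, 34.3 and 39.8 CPM and double mutants 39.3, 39.5, 40.8 and 40.9, with 0.14 (SE 0.06, FDR 0.186). The difference of the Kat6aE/E effect between tissues was −0.22 (SE 0.08, FDR 0.343) for Jak2.

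**Figure D3:**
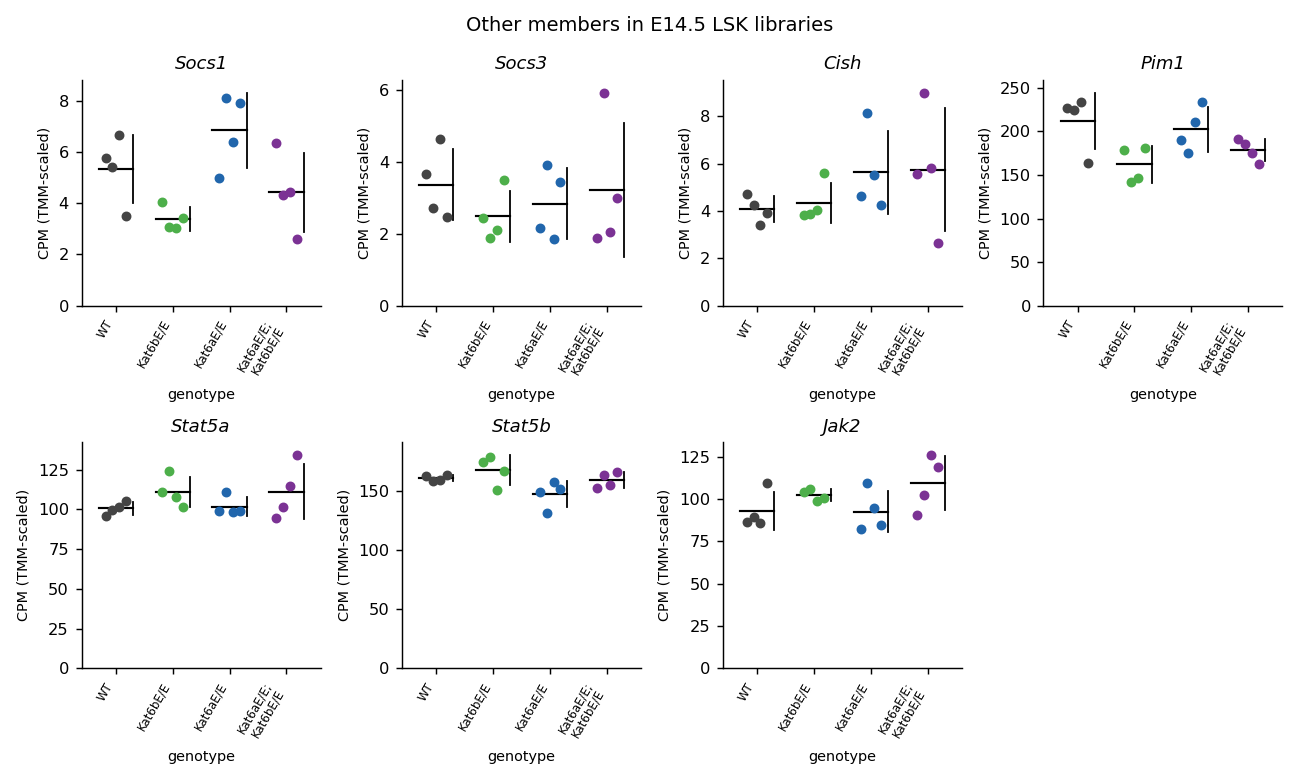
Levels of the other 7 genes in LSK libraries (CPM scaled by TMM, vertical axis from 0) by genotype; dots are libraries, horizontal bars means and vertical bars SD of 4 libraries. Socs1 is 4.97 to 8.13 in Kat6aE/E and 3.02 to 4.06 in Kat6bE/E, and WT replicate 4 is apart from its group for Pim1 (163) and Jak2 (109).

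**Figure D4:**
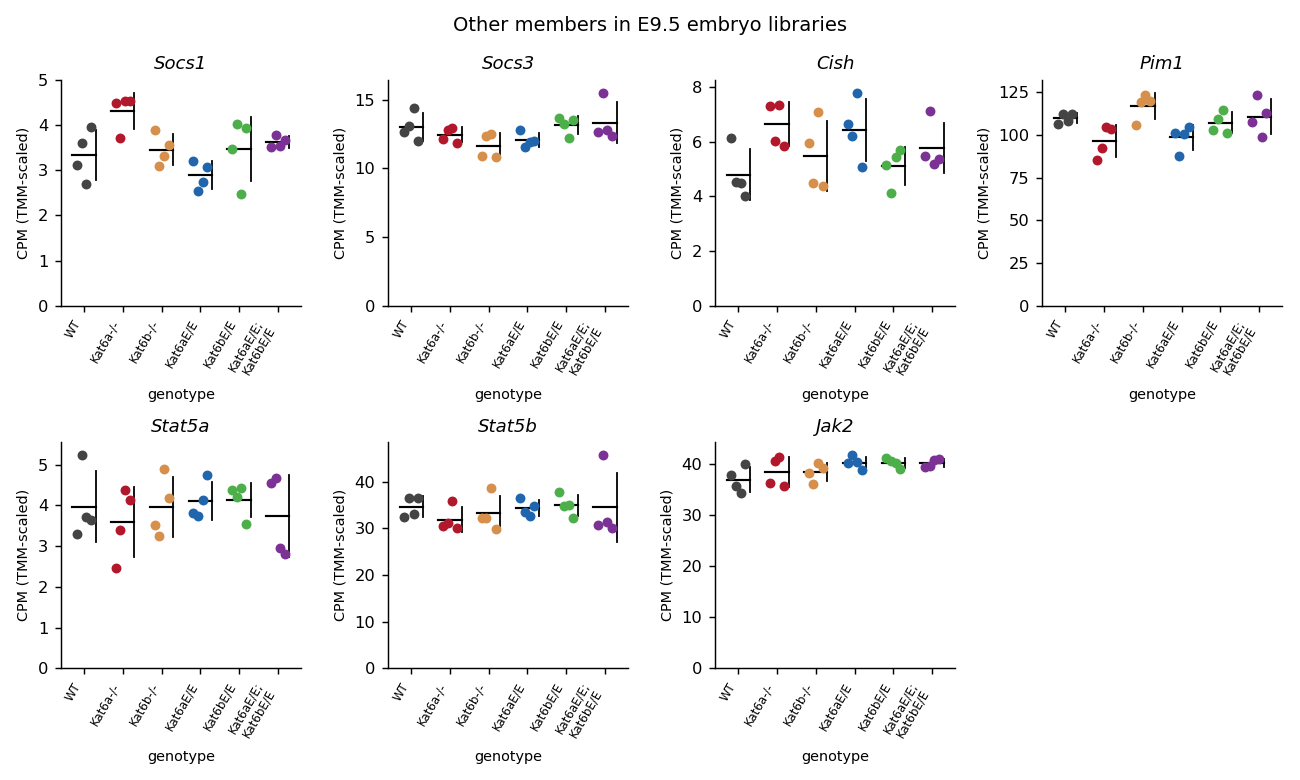
Levels of the same 7 genes in E9.5 embryo libraries (CPM scaled by TMM, vertical axis from 0) for the 6 genotypes, drawn as for LSK cells. Pim1 is 85.5 to 105 in the 8 embryos with Kat6a mutations alone and 107 to 112 in WT. Mean Cish is above WT (4.80) in every mutant genotype, from 5.11 in Kat6bE/E to 6.64 in Kat6a-/-.

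Comparisons between mutants called none of the 7 genes in limma either. In embryos the called share of all genes was 1.6% for Kat6aE/E against Kat6a-/-, 0.0353% for Kat6bE/E against Kat6b-/-, and 0.141%, 0.0282%, 0.00705% and 0.212% for the double mutant against Kat6aE/E, Kat6bE/E, Kat6a-/- and Kat6b-/-. In that order, 1 (Socs1), 1 (Pim1), 1 (Pim1), 0, 0 and 1 (Pim1) of the 7 had an unadjusted p below 0.05. The shares of all genes with such a p were 15.6%, 8.83%, 9.89%, 12%, 10.4% and 10.7%. EdgeR and DESeq2 called 0 of the 7 each time. In LSK cells the called share was 0% for the double mutant against Kat6aE/E, 1.48% for the double mutant against Kat6bE/E and 2.07% for Kat6aE/E against Kat6bE/E. Of the 7, 0, 1 (Socs1) and 2 (Socs1 and Stat5b) had an unadjusted limma p below 0.05, against 1.51%, 20.8% and 17.5% of all genes. For the first of these comparisons, edgeR and DESeq2 also called 0 of all genes.

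The test of a different effect in the 2 tissues called none of the 7 genes in limma, with 2, 0 and 0 of them at an unadjusted p below 0.05 for Kat6aE/E, Kat6bE/E and the double mutant. Over all 15123 genes, 0.139%, 0% and 0.00661% were called. In the same order, 8.91%, 3.92% and 7.99% of all genes had an unadjusted p below 0.05, and no other tool was run on the joint model. 

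The circuit differed far more between WT tissues than between genotypes, as did most genes: 76% of the 15123 genes were called between WT LSK cells and WT embryos, and all 7 genes other than Socs2 were. Per length, as FPKM, which divides the CPM by gene length, the order in WT LSK cells was Pim1 (75.8 ± 11.7, SD, n = 4), Stat5a (24.6 ± 0.954), Stat5b (19.6 ± 0.248), Jak2 (17.7 ± 2.14), Socs1 (3.87 ± 0.965), Socs2 (3.09 ± 0.319), Cish (1.31 ± 0.175) and Socs3 (1.19 ± 0.348). The ranges of Stat5b and Jak2, of Socs1 and Socs2, and of Cish and Socs3 overlapped, so these neighbours were not separated. The kinase, the STATs and Pim1 thus stood above all 4 feedback inhibitors.

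In WT embryos the order was Pim1 (41.1 ± 1.09 FPKM), Jak2 (7.39 ± 0.508), Socs2 (7.33 ± 0.427), Socs3 (4.85 ± 0.365), Stat5b (4.42 ± 0.283), Socs1 (2.54 ± 0.420), Cish (1.62 ± 0.315) and Stat5a (1.02 ± 0.218). Jak2 and Socs2, Socs3 and Stat5b, and Socs1 and Cish overlapped. Socs2 was thus the most abundant of the 4 inhibitors in embryos, and Stat5a, second in LSK cells, came last.

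Between WT LSK cells and WT embryos, Stat5a was 23.1-fold higher (log2 fold change 4.53, SE 0.17, FDR 1.05e-22), Stat5b 4.59-fold (2.20, SE 0.10), Jak2 2.23-fold (1.16, SE 0.08) and Pim1 1.956-fold (0.97, SE 0.11). Socs3 was 5.24-fold lower (−2.39, SE 0.23, FDR 1.97e-11). The 2 remaining calls were less firm: Cish was lower by 0.74 on the log2 scale (SE 0.22, FDR 0.00309) and Socs1 higher by 0.52 (SE 0.23, FDR 0.0434), but without surrogate variables they stood at −0.29 (FDR 0.360) and 0.38 (FDR 0.204). Leaving out any 1 of 7 of the 8 WT libraries also ended the call of Socs1, with FDRs from 0.0536 to 0.126. For Socs2 the value was −0.64 (SE 0.15), and −1.31 without surrogate variables, with no test.

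**Figure D5:**
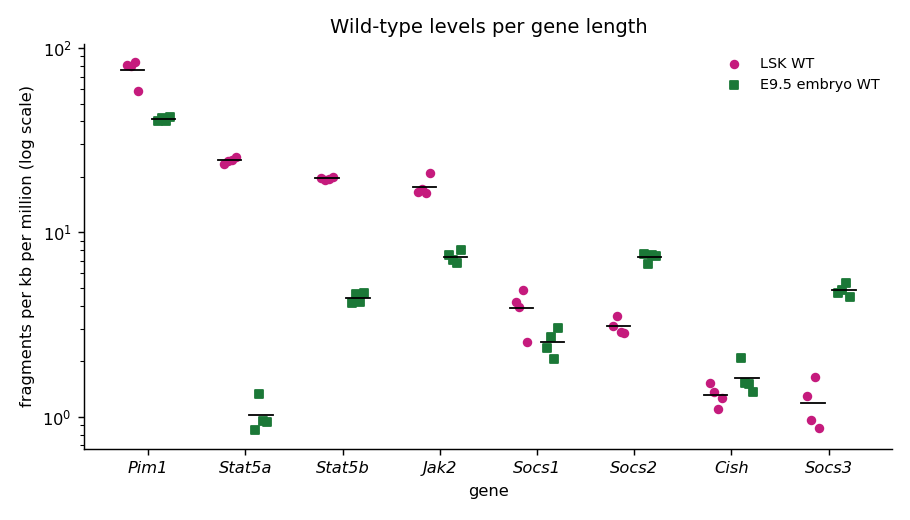
Level per gene length (FPKM, logarithmic vertical axis) of the 8 genes in the 4 WT LSK and 4 WT embryo libraries; markers are libraries and bars are means. Stat5a averages 24.6 in LSK cells and 1.02 in embryos, while Socs2 averages 3.09 and 7.33 and Socs3 1.19 and 4.85.

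Over all 16 LSK libraries, genotypes pooled, the 4 feedback inhibitors varied more than the other 4 genes. There the coefficient of variation was 38.6% for Socs3, 34.8% for Socs1, 33.6% for Cish and 33.5% for Socs2, against 15.6% for Pim1, 12.8% for Jak2, 10.1% for Stat5a and 7.01% for Stat5b. Within genotypes this order did not hold throughout: in WT it was 10.2% for Socs2 and 13.5% for Cish, below the 15.4% of Pim1, and in Kat6bE/E 10.98% for Socs2 and 12.8% for Pim1. In Kat6aE/E and the double mutant Socs2 varied by 38.6% and 29.9%. The pooled value of Socs2 thus also holds the genotype difference for which it was chosen. The 4 inhibitors had the lowest counts too, 24 to 485 per LSK library, where the other 4 genes had at least 1344. Counting noise is relatively larger at low counts, and its part was not tested. In the 24 embryos Socs2, with a median of 19.5 CPM, varied by 11.6%, less than Cish (19.3%), Stat5a (17.7%) and Socs1 (16.7%).

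A wider set of 80 genes of the pathway, in 6 lists of ligands, receptors, kinases and STATs, other SOCS genes, other inhibitors and STAT5 targets, of which some genes stand in more than 1 list, showed a few changes in LSK cells, and those against WT in the model were in receptors. The lists were chosen with earlier results of these data known, so their called shares are descriptive and no test of the set. Of the 66 genes tested, 3 rose and 1 fell in Kat6aE/E against WT (6.06%, against 1.36% of all genes, with a median log2 fold change of 0.02 in the set and −0.01 over all genes), and 0 were called in Kat6bE/E and in the double mutant, with 4 and 8 at an unadjusted limma p below 0.05. Of all genes, 2.78% and 6.85% had such a p in Kat6bE/E and the double mutant. EdgeR with surrogate variables called 0 in both, and DESeq2 called 0 and 1 (Ccnd3, a cyclin, in the double mutant). Without double mutant replicate 1, 11 pathway genes were called in the double mutant, beside 2170 of all genes. The double mutant counts therefore rest on that library. All 4 calls in Kat6aE/E fell among the 22 receptors tested. None of 16 other STAT5 targets, 8 kinases and STATs, 4 other SOCS genes, 12 other inhibitors and 6 ligands was called in limma, where 7, 1, 0, 2 and 3 of them had an unadjusted p below 0.05. Of all genes, 12.5% had such a p in this comparison. The receptor calls were not firm: over 23 alternatives Csf2rb was called in 18, Csf2rb2 in 14, Il7r in 9 and Il6ra in 5. Each kept its sign in all 23. With all LSK libraries and no surrogate variables, 0 of the 4 were called. Leaving out Kat6aE/E replicate 1, the library that shared a litter with WT, also left 0 called. From the WT and Kat6aE/E libraries alone, without surrogate variables, Csf2rb and Csf2rb2 were called.

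Csf2rb encodes the common beta chain of the receptors for IL-3, IL-5 and GM-CSF, which signal through JAK2 and STAT5. WT LSK libraries held 95.8, 96.8, 94.7 and 87.1 CPM and Kat6aE/E libraries 141, 102, 113 and 129, all above WT, with a log2 fold change of 0.45 (SE 0.06, FDR 0.00400). Between these groups 4.1% of all genes tested did not overlap. Csf2rb2, a close paralogue specific to IL-3, stood at 13.2, 13.98, 12.8 and 11.3 CPM in WT and at 20.8, 18.8, 17.9 and 17.8 in Kat6aE/E (0.62, SE 0.11, FDR 0.0150). Reads may be exchanged between these close paralogues, so how much each rose is uncertain. Il6ra, the IL-6 receptor alpha chain, was at 53.7, 60.3, 58.3 and 45.9 CPM in WT and 81.7, 52.0, 62.6 and 70.5 in Kat6aE/E, where the ranges overlapped (0.40, SE 0.09, FDR 0.0385).

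Il7r, the IL-7 receptor alpha chain and one of the lymphoid markers above, fell in Kat6aE/E. Its levels were 20.1, 21.4, 21.4 and 22.8 CPM in WT and 9.67, 5.26, 17.7 and 13.2 in Kat6aE/E, all below WT (−0.87, SE 0.18, FDR 0.0299). As above, 4.1% of all genes tested did not overlap between these groups. In the double mutant Il7r was at 20.4, 6.80, 4.35 and 8.38 CPM, with only replicate 1 in the WT range.

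Against Kat6bE/E, 5 pathway genes rose in Kat6aE/E LSK cells (7.58%, against 2.07% of all genes) and 4 in the double mutant (6.06%, against 1.48%). Csf2rb, Csf2rb2 and Il6ra were among them in both comparisons. The others in Kat6aE/E were the STAT5 targets Bcl2, an inhibitor of apoptosis (0.55, SE 0.12, FDR 0.0319), and Id1, an inhibitor of helix-loop-helix factors (0.57, SE 0.14, FDR 0.0466). Id1 stood at 37.2 to 49.1 CPM in Kat6aE/E and 23.2 to 28.8 in Kat6bE/E, whereas the ranges of Bcl2 overlapped. Between these genotypes 9.94% of all genes tested did not overlap. In the double mutant the other was Ptprc, the CD45 phosphatase (0.44, SE 0.10, FDR 0.0444), whose ranges overlapped. Over 22 alternatives, Bcl2 was called in 12, Id1 in 8 and Ptprc in 7. The shares of 7.58% and 6.06% are descriptive too, since the lists were chosen with earlier results known.

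In embryos, of 62 pathway genes tested, 1 rose in Kat6a-/- (Socs7, a SOCS family member, 0.26, SE 0.06, FDR 0.0328), 1 fell in the double mutant (Ptpn1, a phosphatase that acts on JAK2, −0.22, SE 0.05, FDR 0.0176), and 0 were called in the other 3 genotypes, with 6, 5 and 2 at an unadjusted limma p below 0.05 in Kat6b-/-, Kat6aE/E and Kat6bE/E. Of all genes, 12.1%, 10% and 4.41% had such a p in these 3. EdgeR and DESeq2 with surrogate variables also called 0 pathway genes in these 3. The called shares, 1.61% in both Kat6a-/- and the double mutant, were below the 2.64% and 2.91% of all genes. Over 21 alternatives, Socs7 was called in 11 and Ptpn1 in 13. Between the WT tissues, 41 of 69 pathway genes were higher in LSK cells and 24 were lower, and all 8 kinases and STATs outside the 8 genes were higher.

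The genes whose levels followed Socs2 most closely differed between the tissues. Over the 16 LSK libraries, Pearson's r of log2 CPM with Socs2 was highest for Sh2d2a (0.889), Inf2 (0.875), Scpep1 (0.873), Filip1l (0.870) and Sh3tc1 (0.856) and lowest for Smtnl2 (−0.842), Gls2 (−0.838) and Chchd7 (−0.836), among 13070 genes. Over the 24 embryos it was highest for Bok (0.711), Mcf2 (0.688), Ranbp17 (0.640), Ppp1ccb (0.625) and Sars2 (0.617) and lowest for Slc25a45 (−0.737), Tbxa2r (−0.698) and Mmp14 (−0.696). These are descriptions over libraries that share scaling, depth and cell makeup, and the top 5 changed with the measure: Spearman's rho kept 1 of them in LSK cells and 3 in embryos, and removal of genotype means kept 0 in both. For the 7 other members r ranged from −0.418 (Socs3) to 0.299 (Pim1) in LSK cells and from −0.441 (Cish) to 0.213 (Pim1) in embryos. With genotype means removed, LSK values were −0.703 for Cish, −0.519 for Socs3 and 0.494 for Stat5b.

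In the mouse genome (GRCm39), Socs2 lies on chromosome 10 from 95219523 to 95253929 on the minus strand, with 4 exons in its canonical transcript. Antisense long noncoding RNAs overlap it, and the 2 of them in the count files had at most 2 counts in any embryo library and at most 7 in any LSK library. Of the stretches of 66 bases in its canonical transcript, 29.4% occur in other genes, 13.3% in Gm9847. The libraries were not stranded, so reads from such overlaps cannot be told apart by strand.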

How the data were processed

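RNA-seq was done on 24 whole E9.5 embryos and 16 samples of sorted E14.5 fetal liver LSK cells. Per the labels and methods, libraries were unstranded (TruSeq v2) and sequenced in pairs, and the authors aligned the reads to the mm39 genome with Rsubread and counted read pairs per RefSeq gene with featureCounts (versions not given in the sources used here). The deposited values are raw counts for 26411 genes per library, without pooling of replicates.

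The analysis followed the study's design. In each tissue, protein-coding genes not on the Y chromosome (20951, by RefSeq annotation) were filtered with filterByExpr, scaled by TMM and fitted with voomLmFit (edgeR 4.0.16, limma 3.58.1, R 4.3.3) with genotype and 4 surrogate variables as fixed terms and a random block for litter, followed by robust empirical Bayes moderation. This left 14183 genes in embryos and 13071 in LSK cells, and 15123 in a joint model of the 40 libraries. A gene was called at an FDR below 0.05 over all genes tested. Reported tests of the 7 genes come from limma unless edgeR's quasi-likelihood test or DESeq2 1.42.0 is named. CPM values were scaled by TMM within a tissue, so levels are set across tissues only by the joint model or side by side as FPKM. Scripts were tested on simulated data.

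The 8 genes and the pathway and marker lists were chosen with earlier results of these data known. Besides the 8 genes, the text names the pathway genes called against WT, and the 5 genes with the highest and 3 with the lowest correlation with Socs2 in each tissue. Bcl2, Id1, Ptprc and Ccnd3 are outside this rule and were named after their values were seen. Samples with the same replicate number did not deviate together: the median correlation of their deviations was 0.0478 in embryos and 0.00383 in LSK cells. Of 60 pairs of replicates, 0 were identical. Alternatives covered the number of surrogate variables, the litter and replicate blocks, the test, scaling, filter, gene types, sample weights, the libraries in the fit and leaving out each library. Leaving out the 4 LSK libraries with few genes detected and the covariate for genes detected were chosen after the data were seen. Promoter windows are RefSeq's, on GRCm38.p6, and gene positions are on GRCm39.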

Additional observations from a re-analysis of the deposited data

Results flagged for a closer look

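In 80 sets of 4 libraries (8 genes, 10 groups of genotype and tissue), 9 held a library farther from the other 3 than Dixon's 95% critical value allows, where chance gives about 1 in 20. The sets share libraries across genes, so they are not independent. In LSK cells, Socs2 in Kat6aE/E replicate 2 was 5.47 CPM, with the others of its group at 14.8 to 16.03. In the same library, Stat5a stood at 111 CPM, and the others at 98.2 to 99.1. WT replicate 4 of the LSK cells stood apart for Pim1, with 163 CPM against 224 to 234, and for Jak2, with 109 CPM against 85.8 to 89.2. Cish in Kat6bE/E LSK replicate 4 was 5.62 CPM and 3.81 to 4.05 in the others.

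In embryos, double mutant replicate 2 was apart for 3 of the genes. It held 15.5 CPM of Socs3, against 12.4 to 12.8 in the others, 7.15 CPM of Cish against 5.18 to 5.47, and 45.7 CPM of Stat5b against 30.2 to 31.4. Socs1 in Kat6a-/- replicate 2 was 3.72 CPM, below the 4.50 to 4.54 of its group. The part of library quality or cell makeup in these values was not tested.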

How the results depend on the processing

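The direction of Socs2 in Kat6aE/E LSK cells, Kat6aE/E embryos and double mutant LSK cells held under every alternative run. Because Socs2 was chosen on these same values, this describes how the estimates moved and is no test of the direction. The estimate for double mutant LSK cells was 0.91 with 2 surrogate variables, 0.51 with edgeR without surrogate variables, 1.08 with genes detected as a covariate, and 0.65 to 0.97 when each library was left out. In Kat6bE/E LSK cells it was −0.026 with edgeR without surrogate variables. In Kat6a-/- embryos, leaving out each library gave −0.17 to 0.0072. The difference between tissues for Kat6aE/E was 0.81 without surrogate variables, 1.02 without the 4 libraries with few genes detected, 0.94 from separate fits, and 0.82 to 1.00 with each library left out. For the double mutant it was 0.92 with 2 surrogate variables and 0.65 to 1.00 with each library left out, and for Kat6bE/E it was 0.067 from separate fits and −0.086 to 0.019 with each library left out. Of the 7 other genes, DESeq2 called 1 for the double mutant against Kat6bE/E in LSK cells, and edgeR and DESeq2 with surrogate variables called 1 and 2 for Kat6aE/E against Kat6bE/E. Leaving out each library gave 0 to 1 calls for Kat6bE/E against WT and for the double mutant against Kat6bE/E in LSK cells, where Pim1 was called without double mutant replicate 1. The shares of all genes called in the runs just named are not given here, so these calls are not read as results about the genes.

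Pathway genes called in Kat6aE/E LSK cells numbered 4 in the model above. With all LSK libraries they numbered 0 without surrogate variables in limma or edgeR, with sample weights, and with genes detected as a covariate. They numbered 1 with edgeR or without the litter block, and 2 with 2 surrogate variables. From the 8 libraries alone, also without surrogate variables, they numbered 2. All gene types gave 3, and DESeq2 or leaving out the 4 libraries with few genes detected gave 6. With each library left out the count was 0 to 5. In Kat6a-/- embryos they numbered 0 with 0 or 2 surrogate variables, sample weights or edgeR without surrogate variables, 2 with all gene types, 3 with edgeR, DESeq2 or no litter block, 5 with 6 surrogate variables, and 0 to 5 with each library left out. In double mutant LSK cells, with 0 in the model, they numbered 1 with DESeq2 or with edgeR without surrogate variables, 2 without the 4 libraries with few genes detected, and 0 to 11 with each library left out, the highest without double mutant replicate 1. In Kat6b-/- embryos the replicate block gave 1. In double mutant embryos they numbered 0 without surrogate variables (also in edgeR and from the 8 libraries alone) and with sample weights, 2 with DESeq2, 3 with 6 surrogate variables, and 0 to 2 with each library left out.

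Replicate numbers did not pair the samples. With the replicate number as a block, Socs2 was 0.68, 0.12 and 0.63 in Kat6aE/E, Kat6bE/E and double mutant LSK cells, and the block left 1 pathway gene called in Kat6aE/E LSK cells. The causes of these shifts were not tested. The lowest counts were 24 for Socs3 in an LSK library and 28 for Stat5a in an embryo library.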
